A study of Mus musculus with 10 samples.

Results

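The genes of the proteins that build the cytosolic ribosome were followed in endothelium of mouse ear skin, separately in lymphatic cells (LECs) and blood vessel cells (BECs). Members were taken by symbol: protein-coding genes named Rpl or Rps with a number, plus Rplp0, Rplp1, Rplp2 and Rpsa. Pseudogene entries and the Rps6k kinases were left out. This gave 86 of the 46517 Ensembl genes in the tables, 46 of the large subunit, 31 of the small subunit and 9 whose symbol carries l, l1, rt or bp1 after the number. The rule used no measured value.

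The study examined how the oncogenic Pik3ca allele H1047R acts on vascular endothelium, and sorted single cells from ear skin by Podoplanin and CD31 into plates of 384 wells. Mutant cells came from 5 Pik3caH1047R;Cdh5-CreERT2 mice that were Cre+, received 4-OHT (the active tamoxifen metabolite) on the ears at 3 weeks and were taken at 5 weeks. Cdh5-CreERT2 drives recombination in lymphatic and blood endothelium alike, and the mutant Pik3ca is expressed from the Rosa26 locus. The 2 control mice were also 5 weeks old. Control 1 was an untreated C57BL/6J mouse, and control 2 was a Cre- animal of the mutant strain that had received 4-OHT. Another Cre- control was not analysed here. The groups therefore share tissue, age and sort, and control 2 shares the strain label and drug with the mutants, whereas control 1 does not.

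Across 9 plates, 3248 cells passed the study's filters, with 98334715 to 150173532 reads a plate. A cell was taken as an LEC when its Prox1, Flt4 and Mmrn1 values summed to at least 300 CPM (read counts scaled to a common library total) and exceeded the sum of Flt1, Emcn and Podxl, and as a BEC in the reverse case. This gave 1283 mutant and 358 control LECs, and 1174 mutant and 316 control BECs. The plates held both kinds, since 7 other LEC genes, among them Lyve1 and Reln, summed to 4560–5599 CPM in LECs and 274–809 CPM in BECs. A like list of BEC genes, among them Plvap and Vwf, summed to 5965–9668 CPM in BECs and 1247–1950 CPM in LECs. Ephb4 of that list was higher in LECs of both controls, at 442 and 309 CPM against 383 and 199 CPM in BECs. In mutants it ran from 364 to 555 CPM in LECs and from 382 to 560 CPM in BECs. Of 1641 LECs, 880 held over 10% of their marker sum in BEC markers. Of 1490 BECs, 299 held over 10% in LEC markers. All mutants but mutant 5 came from an earlier series of plate numbers, and mutant 5 and both controls from a later one, so that the plate series and the genotype can be told apart only through mutant 5.

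Ribosomal proteins bind the ribosomal RNAs, fold them and line the sites where messenger RNA, transfer RNA and the growing chain pass. The large subunit joins amino acids and holds the exit tunnel, and the small subunit reads the codons. Their mRNAs are among the most abundant of a cell and typically begin with a run of pyrimidines, the terminal oligopyrimidine (TOP) tract, through which mTOR, a kinase downstream of PI3K, controls their translation. That control acts on translation, and the values here are RNA levels.

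The sequence around the transcript start is shown for the 9 members that fell in mutant LECs and for Rpl7l1 and Rps19bp1, the only members whose estimate in LECs was above 0. Each window holds 10 bases before the RefSeq start and 20 bases from it on, in mouse build GRCm38.p6 and 5′ to 3′ on the gene's own strand, so that it spans the promoter edge and the beginning of the 5′ UTR. Capitals mark the longest tract of a C followed by at least 4 bases that are each C or T.
Rpl27a, chr7:109519185-109519214, + strand: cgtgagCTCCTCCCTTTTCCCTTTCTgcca
Rpl13a, chr7:45128726-45128755, - strand: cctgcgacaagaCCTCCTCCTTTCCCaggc
Rpl14, chr9:120571507-120571536, + strand: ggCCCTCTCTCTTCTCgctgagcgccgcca
Rps9, chr7:3704031-3704060, + strand: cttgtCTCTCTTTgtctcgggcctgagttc
Rps7, chr12:28635934-28635963, - strand: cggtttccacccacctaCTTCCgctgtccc
Rpl13, chr8:123102340-123102369, + strand: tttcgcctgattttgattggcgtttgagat
Rpl9, chr5:65391412-65391441, - strand: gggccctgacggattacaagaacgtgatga
Rps3, chr7:99483690-99483719, - strand: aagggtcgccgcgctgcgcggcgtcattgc
Rps3a1, chr3:86142649-86142678, - strand: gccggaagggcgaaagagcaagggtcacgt
Rpl7l1, chr17:46782637-46782666, - strand: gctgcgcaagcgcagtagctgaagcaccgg
Rps19bp1, chr15:80264287-80264316, - strand: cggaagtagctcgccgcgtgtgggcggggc

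Rpl27a has the longest run of these, 20 bases that cover the RefSeq start. Rps7 has the shortest, 5 bases. Rpl13, Rpl9, Rps3 and Rps3a1 fell without such a tract in this window, and neither Rpl7l1 nor Rps19bp1 holds one. RefSeq gave 78 start windows for 66 of the 86 members. Of these, 47 (60.3%) held the tract on the gene's strand, against 35.8% of 32851 windows of all genes, and 24.4% held it on the opposite strand, against 40.7% of all. The 5 letters CTTTC, a shorter string that can lie within the tract, stood in 16 member windows (20.5%), against 3.74% of all, and on the opposite strand in 3.85% and 3.65%. The letters were chosen after sequences were seen, so these shares describe the windows and are no independent test. A window without the tract says only that these letters are not in it, and a match is a description and not a site.

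Per kilobase of transcript, the members spanned a wide range in control LECs. Rps9, a protein near the entry of the mRNA channel, had the highest level at 924 CPM per kb, and Rpl13a at 813 and Rps14 at 767 were among the highest 5. The 77 members without a suffix lay between 37.2 and 924 CPM per kb, with a median of 329. Rps9 measured 811 and 1036 CPM per kb in controls 1 and 2, and Rpl13a 734 and 892. The means of these genes differed by less than the gap between the control mice. The lowest 5 all carried a suffix. Rpl3l, the paralog of Rpl3 known from striated muscle, was listed at 0 in control LECs, Rpl10l, known from testis, stood at 0.14 CPM per kb, and Rpl39l, also known from testis, at 0.50. Rps27rt, a retrocopy of Rps27, stood at 8.22 and Rps19bp1, a nucleolar protein that binds Rps19, at 24.8. Each of the 77 was seen in at least 83.2% of control LECs when cells were thinned to 50000 reads.

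**Figure D1:**
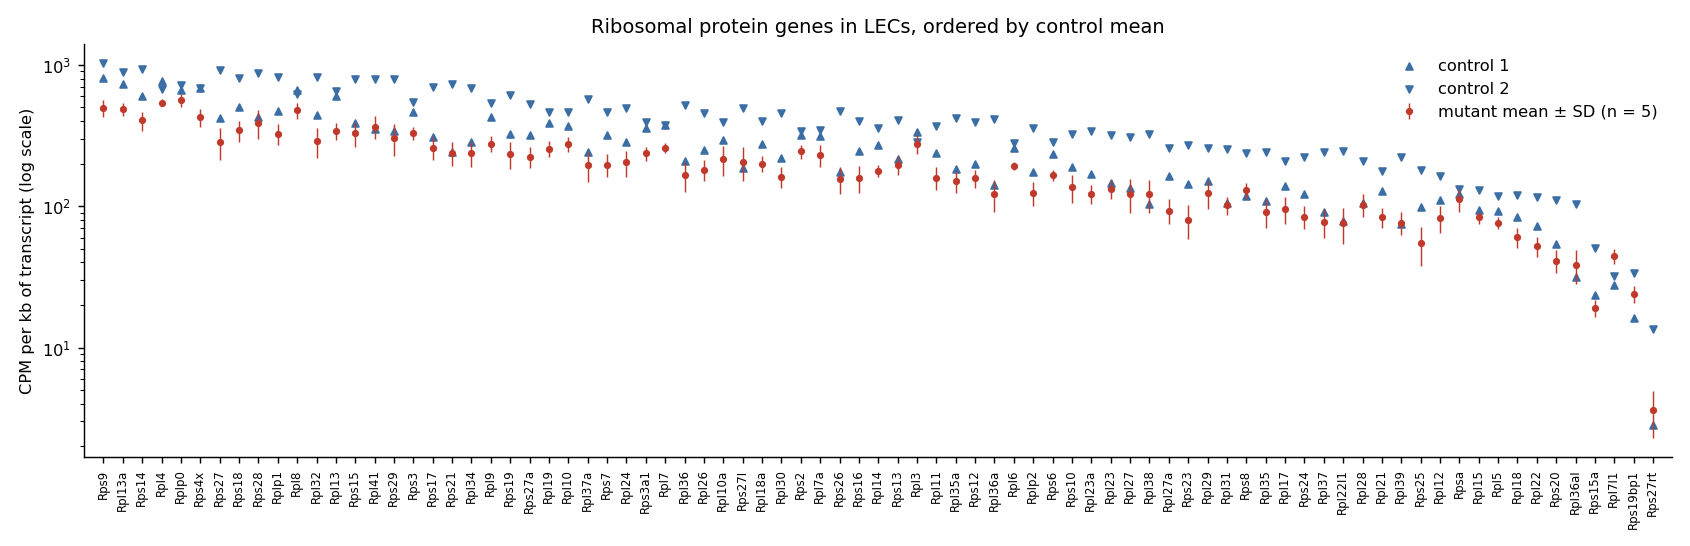
Level of the members in LECs, in CPM per kilobase of transcript on a log scale, ordered by the mean of the 2 control mice. Triangles are controls 1 and 2, and red points and bars are the mean and SD of 5 mutant mice. Control 2 lies above control 1 and both above the mutant mean for most members, and Rpl7l1 has its mutant mean above both controls; Rpl3l, Rpl10l and Rpl39l, at under 1 CPM per kb, and the members not reported here are not drawn.

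Some of these levels rest on reads that could belong elsewhere. A median of 43.5% of the 50-base words of a member's transcript also occurred in a transcript of another gene, pseudogenes included. For Rps27 this share was 98.6%, for Rps27rt 91.1% and for Rpl9 93.3%, so their values are uncertain where the counting split such reads. The 264 pseudogene entries together held reads equal to 0.640–2.02% of those of the members. Duplicate reads had been removed before counting, and no member exceeded 1.01 counts per base in a cell. Kit strandedness is not given in the sources used here, so reads of overlapping antisense genes cannot be separated.

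Members took a smaller share of the reads in mutant than in control endothelium, in both lineages. In LECs they held 2.098% and 3.06% of gene reads in controls 1 and 2, and 1.54%, 1.44%, 1.39%, 1.58% and 1.77% in mutants 1 to 5. Every mutant mouse lay below both controls. The mean fell by 1.04 percentage points, from 2.58% to 1.54% ± 0.145 (SD, n = 5; two-sided exact permutation test, p = 0.0952, the smallest that 5 mice against 2 allow). In BECs the shares were 2.36% and 3.29% in the controls and 1.66%, 1.75%, 1.54%, 1.35% and 2.35% in the mutants. Mutant 5 almost met control 1, at 2.350% against 2.355%, and the other mutants lay clearly below. The mean fell by 1.09 points, from 2.82% to 1.73% ± 0.377 (SD, n = 5; exact permutation test, p = 0.0952). That order was lost with cells thinned to 50000 reads, where mutant 5 had 2.545% and control 1 2.367%, and with the median over cells, at 2.289% and 2.206% (exact permutation test, p = 0.190 for each).

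**Figure D2:**
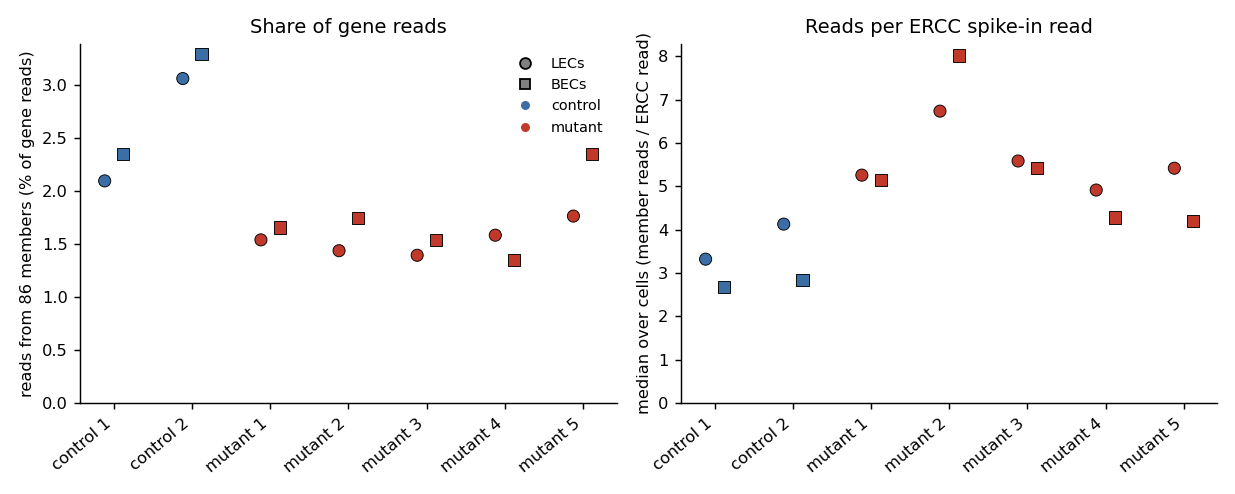
Left, share of gene reads that fell on the 86 members, in percent, for each mouse in LECs (circles) and BECs (squares); right, median over cells of member reads per ERCC spike-in read. Controls are blue and mutants red: the mutant mice lie below both controls on the left and above both on the right, in either cell type, with BECs of mutant 5 on the left only just below those of control 1 (2.350% against 2.355%).

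The same reads counted against spike-in RNA gave the opposite order. Per ERCC read, LECs of controls 1 and 2 had 3.32 and 4.13 member reads in the median cell, and those of mutants 1 to 5 had 5.26, 6.73, 5.58, 4.91 and 5.42. All mutants stood above both controls, with means of 3.72 and 5.58 ± 0.690 (SD, n = 5; exact permutation test, p = 0.0952). Reads of all genes per ERCC read rose more, from a mean of 149.9 in control to 377 ± 79.2 in mutant LECs. In BECs the member reads per ERCC read were 2.76 in control and 5.41 ± 1.55 in mutant mice, and all reads 109 and 323. Whether each plate received the same amount of spike-in is not given in the sources used here. As sequenced, without the spike-in, the median LEC held 6016 and 10056 member reads in controls 1 and 2 and 4725, 4053, 4352, 4475 and 9141 in mutants 1 to 5, and the median BEC 6084 and 7502 in controls and 2846–7626 in mutants. Only mutant 5 reached into or past the control range. Whether cells of the mutants held more or less member RNA therefore depends on the scale. In sums over cells alone, fewer expressing cells and less RNA per cell cannot be told apart. Cell by cell, the median LEC showed 80 or 81 of the 86 members in every mouse. In thinned cells it showed 76 and 79 in controls 1 and 2 and 76–78 in mutants. The median share over single LECs was 2.17% and 3.00% in the controls and 1.38–1.77% in mutants.

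The controls also differed from each other. Control 2 was above control 1 for 77 of 84 members in LECs, by a median of 0.70 on the log2 scale, against 49.8% of all genes and a median of 0.01. In BECs it was above for 79 of 85 members, by a median of 0.57. The controls differed in strain and in drug, so that strain, drug and animal cannot be told apart here. Between plates of the same animal, the LEC share was 1.56% and 1.21% in mutant 3 and 1.87% and 1.67% in mutant 5. Within the later plate series alone, where mutant 5 stands against both controls, the difference in share was −0.816 points in LECs and −0.475 points in BECs.

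Fibroblast markers such as Col1a1 and Dcn moved with the groups. Their 5 genes summed to 193–382 CPM in control and 15.8–106 CPM in mutant LECs, and to 575–790 and 12.8–43.4 CPM in BECs, with no marker at 0 throughout. Mural markers were 98.1–133 CPM in control and 35.9–64.6 CPM in mutant LECs, and 502–910.1 and 156–348 CPM in BECs. In LECs, keratinocyte markers were 252–505 CPM in controls and 84.5–427 CPM in mutants, and Schwann cell markers 26.3–111 and 0.575–17.4 CPM. Immune markers were 9.86–40.3 CPM in control and 25.7–59.2 CPM in mutant LECs, and red blood cell markers 1.96–1.99 and 7.56–24.2 CPM. The part of these cells in the results was not tested. Without cells holding over 200 CPM of fibroblast, mural or keratinocyte markers, the share differed by −0.985 points in LECs and −1.05 points in BECs (exact permutation test, p = 0.0952 for each). This limit was chosen after seeing the data, and cells with up to 200 CPM of these markers stayed in. Dropping the others left 77 of the 183 LECs and 16 of the 159 BECs of control 1, so that its BEC value rests on few cells. Cycling cells were 0.546% and 2.29% of control LECs and 12.1–30.4% of mutant LECs.

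Among single members, 9 fell in mutant LECs and none rose (edgeR's quasi-likelihood test on sums of reads per mouse, Benjamini-Hochberg adjusted p under 0.05 over 19758 genes). These were Rpl27a, Rps7, Rps9, Rpl13, Rpl14, Rpl9, Rpl13a, Rps3a1 and Rps3, that is, 5 of the large and 4 of the small subunit out of 84 members tested. Over all genes tested, 0.805% were called lower and 1.96% higher. DESeq2 called 56 members lower and 1 higher, against 6.01% and 9.59% of all genes. At an unadjusted p under 0.05, edgeR had 71 members lower and 1 higher, against 8.46% and 11.6% of all genes. The estimate was below 0 for 82 of 84 members and above 0 for 2, against 50.4% and 49.6% of all genes, and the median was −0.80 against −0.01 for all genes, on the log2 scale. The values of all 5 mutants lay below both controls for 49 members, above both for 1 and overlapped for 34; among all genes 11.7% lay below and 13.8% above.

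**Figure D3:**
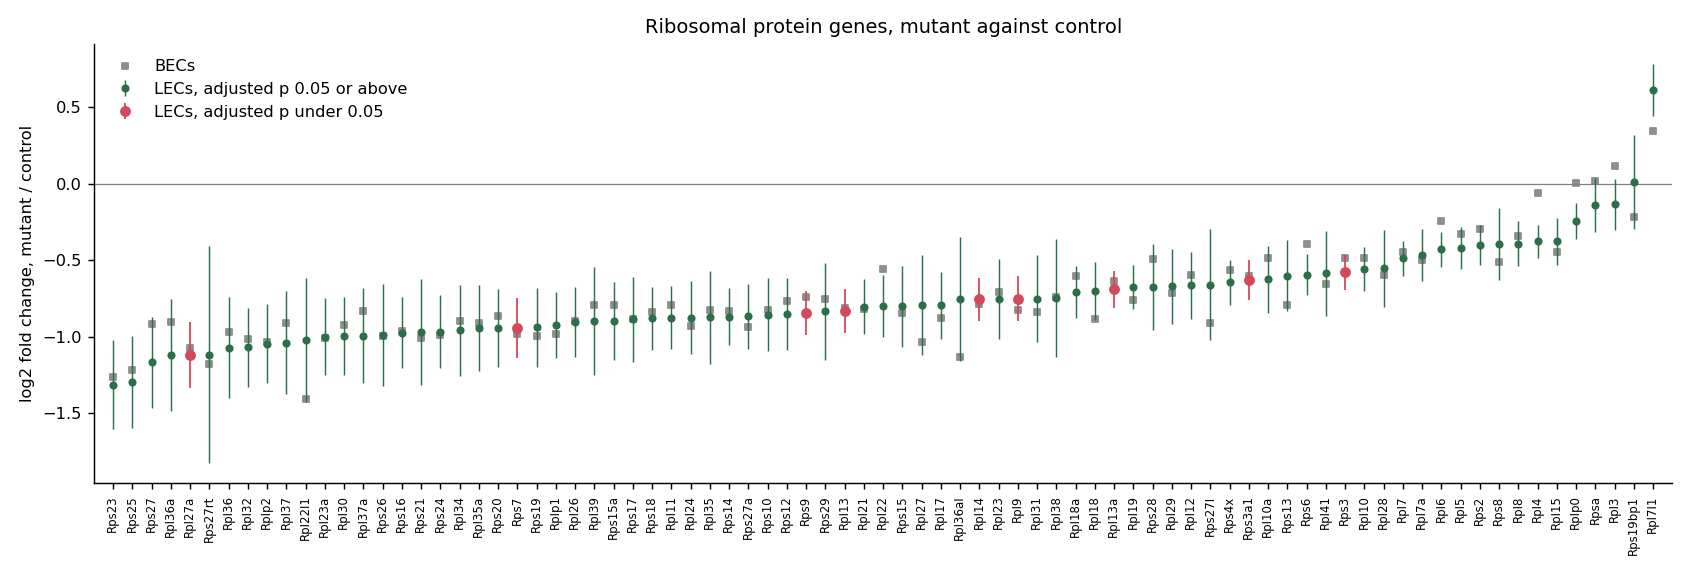
Log2 fold change of the tested members in mutant against control, ordered by the LEC value. Circles with bars are LEC estimates ± SE, red where the adjusted p is under 0.05, and grey squares are BEC estimates. Almost all members lie below 0 in both lineages, Rpl7l1 lies above 0 in both, and Rpl39l, with under 1 CPM per kb, and the members not reported here are not drawn.

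Rpl27a, a large-subunit protein, fell the most among the 9. It measured 193 and 281 normalised CPM (scaled by TMM, trimmed mean of M values) in LECs of controls 1 and 2, and 100.1, 88.3, 94.2, 122 and 139.7 in mutants 1 to 5. The groups did not overlap and mutant 5 was the highest mutant. The log2 fold change was −1.12 ± 0.218 (SE; edgeR adjusted p = 0.0383). This gene also has the longest pyrimidine tract of the windows shown, but Rpl13, Rpl9, Rps3 and Rps3a1 fell without one. A relation of tract and fall was not tested.

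Rps7, a small-subunit protein that also binds the p53 regulator Mdm2, measured 308 and 421 CPM in controls and 169.7, 153, 183, 202 and 242 in mutants. All mutants were lower, by −0.94 ± 0.196 on the log2 scale (edgeR adjusted p = 0.0464). Rps9 measured 749 and 896 CPM in controls and 431, 408, 432, 455 and 559 in mutants. Its mutants were tightly grouped apart from mutant 5, and it fell by 0.85 ± 0.144 (edgeR adjusted p = 0.0263). Rps3, which lies at the mRNA entry and doubles as a DNA repair factor, had the smallest change of the 9. It measured 900.5 and 994 CPM in controls and 628, 646, 584, 588 and 726 in mutants, a fall of 0.58 ± 0.116 without overlap (edgeR adjusted p = 0.0420). Rps3a1, another small-subunit protein, was nearly equal in both controls at 354 and 367 CPM and stood at 223, 246, 212, 215 and 269 CPM in mutants. It fell by 0.63 ± 0.131 (edgeR adjusted p = 0.0464).

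Rpl13 and Rpl13a, both of the large subunit and the latter often used as a reference gene, fell. Rpl13 stood at 471 and 485 CPM in controls and 259.9, 236, 250.4, 268 and 329 in mutants, and fell by 0.83 ± 0.142 (edgeR adjusted p = 0.0268). Rpl13a stood at 775 and 884 CPM in controls and 520.0, 473, 485, 503 and 593 in mutants, and fell by 0.69 ± 0.120 (edgeR adjusted p = 0.0288). In both genes every mutant mouse was below every control, and mutant 5 was nearest to them.

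Rpl14 and Rpl9, further large-subunit proteins, were alike. Rpl14 measured 275 and 339 CPM in controls and 168, 179, 179, 173 and 211 in mutants, a log2 fold change of −0.75 ± 0.140 (edgeR adjusted p = 0.0342). Rpl9 measured 316 and 377 CPM in controls and 201, 199.7, 185, 195 and 249 in mutants, a log2 fold change of −0.75 ± 0.148 (edgeR adjusted p = 0.0397). Again mutant 5 alone stood off from the other mutants, towards the controls.

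**Figure D4:**
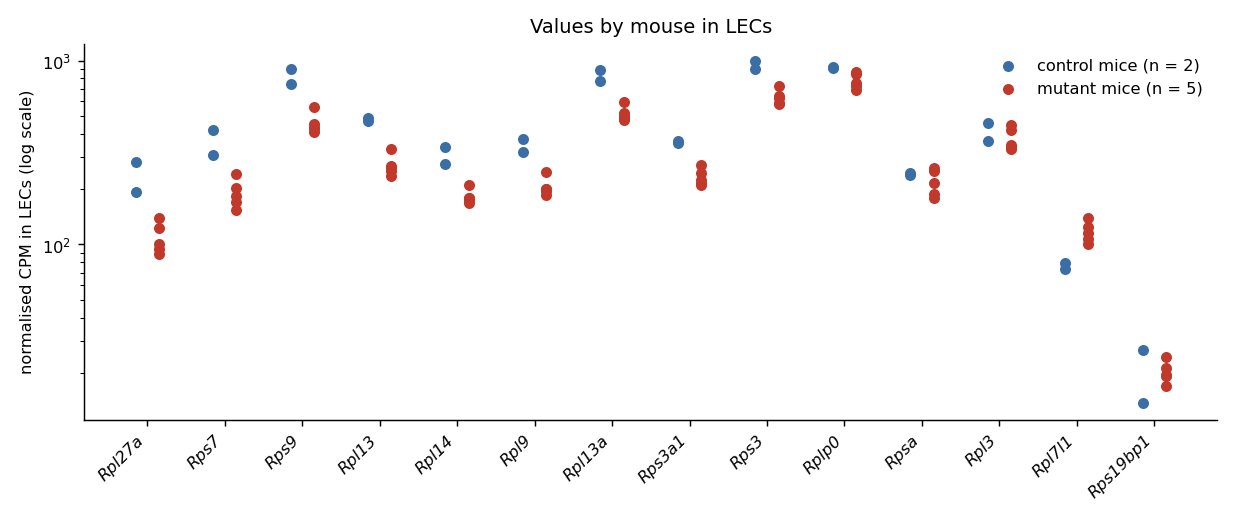
Normalised CPM in LECs on a log scale, each point a mouse (2 control mice in blue, 5 mutant mice in red), for the 9 members that fell and for Rplp0, Rpsa, Rpl3, Rpl7l1 and Rps19bp1. Mutants lie below both controls in the 9 and overlap with them in Rpsa, Rpl3 and Rps19bp1, and lie above both in Rpl7l1.

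Some members with lower estimates than the 9 did not pass the test. Rps23, at the decoding site, had an estimate of −1.31 ± 0.289 (edgeR adjusted p = 0.0540) and Rps25 one of −1.30 ± 0.304 (0.0629); both were named after their values were seen. Rps23 measured 137 and 241 CPM in controls and 63.8, 57.2, 63.4, 90.5 and 105 in mutants. Its controls differed by more than the mutants did.

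The stalk proteins Rplp0, Rplp1 and Rplp2, which recruit the elongation factors to the large subunit, did not move alike in value. Rplp0 measured 910.3 and 928 CPM in control LECs and 843, 864, 755, 727 and 690.2 in mutants, an estimate of −0.24 ± 0.117 (edgeR adjusted p = 0.285). Rplp1 measured 238 and 387 CPM in controls and 150.1, 137, 149, 186 and 200.5 in mutants, an estimate of −0.92 ± 0.217 (edgeR adjusted p = 0.0630). Rplp2 measured 171 and 328 CPM in controls and 96.6–152 CPM in mutants, with an estimate of −1.05 ± 0.258 (edgeR adjusted p = 0.0713). Mutants lay below both controls in all 3 genes, and none passed the test.

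Rps6, the substrate of the S6 kinases downstream of mTOR, measured 208 and 238 CPM in control LECs and 143, 148, 139, 139.6 and 168 in mutants. The groups were apart, and its estimate of −0.59 ± 0.133 had an adjusted p of 0.0564 in edgeR's test. Rpl5 and Rpl11, which with the 5S RNA form the particle that binds Mdm2 when ribosome assembly stalls, had estimates of −0.42 ± 0.139 (edgeR adjusted p = 0.143) and −0.88 ± 0.206 (0.0630). Rpl11 stood at 202 and 291 CPM in controls and 114–175 CPM in mutants. Rpl5 stood at 193 and 229 CPM in controls and 142–172 CPM in mutants, below both as well.

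Rpsa and Rpl3 were the least lowered of the 77 members without a suffix. Rpsa, a small-subunit protein also known as the laminin receptor precursor, measured 239 and 243 CPM in controls and 252, 261, 188, 179 and 216 in mutants. Mutants 1 and 2 exceeded both controls and the others lay below, with an estimate of −0.14 ± 0.177 (edgeR adjusted p = 0.707). Rpl3, which reaches to the peptidyl transferase centre, measured 458 and 366 CPM in controls and 332–444 CPM in mutants, an estimate of −0.13 ± 0.165 (edgeR adjusted p = 0.695). Its groups overlapped, and here control 1 was the higher control.

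Members with a suffix were set beside their partners. Rpl7l1, a paralog of Rpl7 with a part in the assembly of the large subunit, measured 73.5 and 79.7 CPM in control LECs and 106, 100.0, 139, 125 and 115 in mutants. It was the only member with all mutants above both controls, with an estimate of 0.61 ± 0.171 (edgeR adjusted p = 0.0965), and DESeq2 called it higher. Rpl7 went the other way in value, at 439 and 411 CPM in controls and 278–331 CPM in mutants, an estimate of −0.49 ± 0.114 (edgeR adjusted p = 0.0627). Rps19bp1 measured 13.7 and 26.5 CPM in controls and 16.9–24.4 CPM in mutants, inside the control range, with an estimate of 0.01 ± 0.308, whereas its partner Rps19, mutated in Diamond-Blackfan anaemia, had −0.94 ± 0.256 (edgeR adjusted p = 0.0913).

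Rpl22l1, a paralog that can stand in for Rpl22, measured 43.8 and 128.4 CPM in controls and 27.7–54.9 CPM in mutants (estimate −1.02 ± 0.404), and Rpl22 87.4–124 CPM in mutants against 151 and 225 (estimate −0.80 ± 0.202; edgeR adjusted p = 0.0748). Rpl36al had an estimate of −0.76 ± 0.406 and its partner Rpl36a one of −1.12 ± 0.366, with overlapping groups in both. Rps27l, a paralog of Rps27 that p53 induces, had an estimate of −0.66 ± 0.362 with overlap, and Rps27 one of −1.17 ± 0.299 (edgeR adjusted p = 0.0783). Of the other partners, Rpl10 had −0.55 ± 0.145 (edgeR adjusted p = 0.0812), Rpl39, which lines the exit tunnel, −0.90 ± 0.351, and Rps4x −0.64 ± 0.148 (0.0604). Rps27rt stayed at 0.862–4.82 CPM throughout LECs, and Rpl39l at 0–1.14 CPM.

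Transcript length moved with the comparison. Among genes with a mean of at least 5 on the log2 CPM scale, the 51 members under 1000 bases had a median log2 fold change of −0.87 in LECs and 363 other genes of that length −0.36. Between 1000 and 2000 bases, 24 members had −0.68 and 1440 other genes 0.06. Over 2000 bases, 6 members had −0.75 and 4585 other genes 0.15. With the length trend of each library removed, 22 members were called lower, 7 of them among the 9 above, and the median of the members was −0.56. Within the members, length and log2 fold change had a Spearman correlation of 0.38 over 81 genes, which share libraries and depth.

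The calls in LECs depended on the animals. Over all genes, 159 were called lower as reported, 202 without mutant 5 and 23 to 85 with any of mutants 1 to 4 left out. With any of mutants 1, 2, 3 or 4 left out, 0 members were called, and without mutant 5 there were 21, among them all 9. With 1 control mouse left, the median of the members was −1.12 without control 1 and −0.44 without control 2. The medians of all genes were 0.12 and 0.15 in these fits, so the size of the fall depended on which control was kept. Of 22 alternatives, 9 left no call, and the median of the members stayed below 0 in all 22, at −1.12 to −0.44.

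In BECs the members were lower in value to a like extent, but 0 passed edgeR's test out of 85 tested. At an unadjusted p under 0.05 there were 61 lower and 0 higher, against 8.06% and 11.6% of all genes, and DESeq2 called 29 lower and 0 higher, against 5.16% and 9.36%. With edgeR's adjusted p, 0.611% of all genes were lower and 1.51% higher. The estimate was below 0 for 80 of 85 members, against 49.6% of all genes, with a median of −0.82 against 0.01 for all genes. The mutants lay below both controls for 31 members and overlapped for 54, against 11.5% below among all genes. Transcript length moved with this comparison as well. With the same limit on the mean as in LECs, 51 members under 1000 bases had a median of −0.84 and 346 other genes −0.56. Between 1000 and 2000 bases the medians were −0.60 and 0.07, and above that −0.67 and 0.16. With the length trend of each library removed, the median of the members was −0.46 against −0.02 for all genes, and 0 were called.

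Rpl27a measured 232 and 336 CPM in BECs of the controls and 117, 136, 115, 104 and 201 in the mutants. The groups were apart, and the estimate was −1.08 ± 0.264 (edgeR adjusted p = 0.0774). Rpl9 measured 348 and 437 CPM in controls and 183, 223, 202, 169 and 332 in mutants, an estimate of −0.82 ± 0.253 (edgeR adjusted p = 0.136). Rps3 measured 922 and 974 CPM in controls and 618, 669, 616, 551 and 936 in mutants, so that mutant 5 lay between the controls.

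Mutant 5 stood near the controls in BECs for many members. Without it 26 of 84 members were called lower, against 249 of 18717 genes. With 1 control mouse left, the median of the members was −1.07 without control 1 and −0.39 without control 2, against 0.15 and 0.12 for all genes. Apart from Rpl39l, which was near 0, Rpl22l1 had the lowest estimate, at −1.41 ± 0.329 (edgeR adjusted p = 0.0699), from 55.2 and 124.1 CPM in controls to 26.9–47.0 CPM in mutants. Rplp0 measured 856 and 985 CPM in controls and 792–1002 CPM in mutants, an estimate of 0.00 ± 0.129. Rpsa had an estimate of 0.02 ± 0.191 and Rpl3 one of 0.12 ± 0.140, and Rpl7l1 0.34 ± 0.192 (edgeR adjusted p = 0.354). These 4 genes lay near or above 0 in BECs, with overlapping groups. Rpl3l was listed at 0 in both controls and mutants 1 and 2, and at 0.022, 0.991 and 1.27 CPM in mutants 3 to 5. Within the later plate series the median of the members was −0.30, against −0.54 in LECs.

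Whether the mutation effect on the members differed between LECs and BECs was fitted as a difference of effects with the mouse as a block. No member of 86 was called (edgeR adjusted p under 0.05; 0.0319% of all genes higher and 0.160% lower), 1 was lower and 0 higher at an unadjusted p under 0.05 (6.67% and 4.85% of all genes), and DESeq2 called 0 (4.75% of all genes lower and 3.08% higher). The median difference was −0.02, against −0.03 for all genes. Rplp0 had a difference of −0.28 ± 0.144 (edgeR adjusted p = 0.532), Rpl3 −0.28 ± 0.137 (0.497) and Rpsa −0.19 ± 0.164 (0.758). A difference below the spread of these animals would not be seen, and a value that misses the threshold does not show that the lineages respond alike.

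Within the same mice, LECs gave members a slightly smaller share than BECs. The difference was −0.202 points on average, with LECs lower in 6 of 7 mice and higher in mutant 4 (two-sided exact permutation over sign changes, p = 0.0781; the smallest possible is 0.0156). In edgeR with the mouse as a block, 6 of 84 members were lower in LECs and 0 higher, with 25 lower and 0 higher at an unadjusted p under 0.05. Over all genes, 12.4% were lower and 14% higher by adjusted p, and 16.7% and 20.2% by unadjusted p. By adjusted p, members were thus not called lower more often than genes in general in this fit. This depended on the fit, since with the length trend removed 39 of 84 members were lower, against 2369 of 17470 genes. DESeq2 had 14 lower and 0 higher, against 15.5% and 16.7% of all genes. The median of the members was −0.18 against 0.02, and 73 of 84 were below and 11 above 0, against 48.1% and 51.9% of all genes.

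Rps27, a zinc-binding protein of the small subunit, had the largest change of the 6. It measured 186, 401, 157, 163, 145, 124 and 185 CPM in BECs of controls 1 and 2 and mutants 1 to 5, and 147, 302, 84.8, 78.9, 93.9, 141 and 95.0 in LECs. It was lower in LECs in every mouse but mutant 4, with a log2 fold change of −0.59 ± 0.148 (edgeR adjusted p = 0.0173), and kept its call in all 19 alternatives. Nearly all of its sequence occurs in other genes, as given above.

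Rpl36a, which lies at the exit site for transfer RNA, was 0.55 ± 0.154 lower on the log2 scale (edgeR adjusted p = 0.0264) and Rpl37, a large-subunit protein, 0.52 ± 0.141 lower (0.0245). Rpl37 measured 102, 255.96, 96.0, 113, 84.3, 76.7 and 102 CPM in BECs and 76.9, 193, 54.9, 58.2, 57.7, 92.1 and 61.6 in LECs of the same mice. Only mutant 4 had more in LECs. Rps20 (−0.43 ± 0.127; edgeR adjusted p = 0.0362), Rplp1 (−0.38 ± 0.123; 0.04996) and Rps14 (−0.34 ± 0.109; 0.0492), all with the same exception of mutant 4, completed the 6.

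Rps14, a small-subunit protein whose loss marks a form of myelodysplastic syndrome, measured 594, 872, 400.2, 411, 361, 294 and 584 CPM in BECs and 480.1, 696, 291, 272, 293, 360 and 374 in LECs. The number of members called ran from 1 to 35 as single mice were left out. Without mutant 4, 35 of 84 were lower, against 1887 of 17609 genes. Without control 1 it was 3, and without any of mutants 1, 2, 3 or 5 it was 1. Over all genes, 2155 of 17726 were lower without control 1, and 1774 to 1940 without any of those mutants. Rpl7l1 had an estimate of 0.13 ± 0.084 and Rps27l of 0.20 ± 0.163, among the 11 members above 0.

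**Figure D5:**
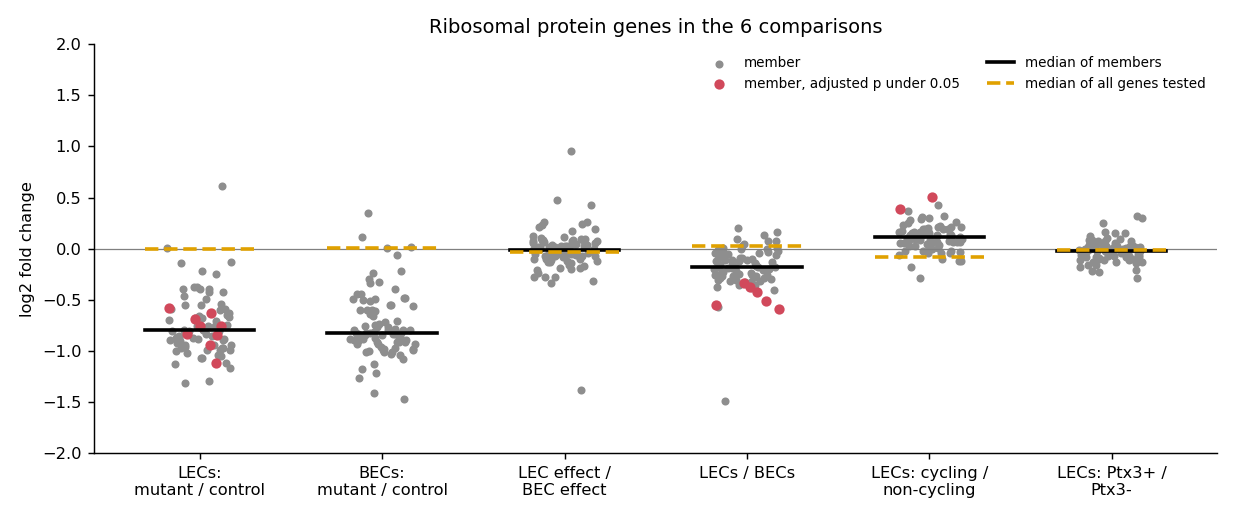
Log2 fold change of each tested member in the 6 comparisons, each point a member, with black bars for the median of the members and dashed bars for the median of all genes tested; red points have an adjusted p under 0.05. Members sit near −0.80 in mutant against control in both lineages, below 0 in LECs against BECs, above 0 in cycling LECs and near 0 in Ptx3+ LECs; Rpl3l, fitted from sums at 0, is not drawn in BECs and in the difference of effects, but is counted in the medians.

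Cycling LECs of the mutants were compared with their non-cycling neighbours in the same mice. A cell was taken as cycling when at least 3 of 7 cell cycle genes such as Mki67 and Top2a had a read after thinning to 50000 reads, which gave 22 to 83 cycling cells a mouse. The member share was higher in cycling cells in mutants 1, 2, 3 and 5 (1.63% against 1.49%, 1.59% against 1.397%, 1.47% against 1.38% and 1.85% against 1.74%) and lower in mutant 4 (1.49% against 1.61%). In edgeR, 2 of 83 members were higher and 0 lower, against 4.57% and 3.26% of all genes, and 9 were higher and 1 lower at an unadjusted p under 0.05, against 11.3% and 11.8%. DESeq2 had 8 higher and 1 lower, against 9.76% and 11.5%. None of these counts of higher members was above the share of all genes. The median of the members was 0.12 against −0.08, and 68 of 83 were above 0 against 44.5% of all genes.

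The 2 that rose were Rps27l and Rpsa. Rps27l measured 73.9, 66.8, 88.3, 134 and 109 CPM in non-cycling and 102, 104, 132, 171 and 154 CPM in cycling LECs of mutants 1 to 5. It was higher in 5 of 5 mice, by 0.51 ± 0.101 (edgeR adjusted p = 0.0257). Rpsa measured 234, 245, 174, 169 and 196 CPM in non-cycling and 288, 331, 263, 205 and 247 CPM in cycling cells. It too was higher in 5 of 5 mice, by 0.39 ± 0.083 (edgeR adjusted p = 0.0337). With any of the 5 mice left out, 0 members were called.

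Rps27, the partner of Rps27l, had an estimate of −0.18 ± 0.125 in the same comparison, and Rplp0 one of −0.12 ± 0.062. Rpl36al had 0.43 ± 0.150 (edgeR adjusted p = 0.138) and Rpl36a 0.14 ± 0.139.

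LECs that express Ptx3, which in this study mark a capillary subtype with a putative immune role, were compared with the other LECs of the same mutant mice. A cell with at least 2 Ptx3 reads after the same thinning was taken as positive. The share was close in both classes, at 1.51% and 1.57% in mutant 1, 1.47% and 1.42% in mutant 2, 1.38% and 1.404% in mutant 3, 1.55% and 1.62% in mutant 4 and 1.75% and 1.79% in mutant 5. No member of 83 was called in edgeR, against 3.06% of all genes called higher and 3.19% lower, and 1 was higher and 4 lower at an unadjusted p under 0.05, against 10.4% and 10.3%. DESeq2 had 1 higher and 3 lower, against 8.63% and 9.43%. Rps4x, an X-linked small-subunit protein, had the lowest adjusted p of the genes described here, with −0.21 ± 0.050 (edgeR adjusted p = 0.0546). Rps27l had 0.26 ± 0.090 and Rps27 −0.23 ± 0.087.

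Genes around the ribosome were read from lists. In LECs, 0 of 21 genes of a TOP list passed the test in either direction, with a median of −0.13. That list holds translation factors but also other genes, such as Nap1l1, Hnrnpa1 and Gas5. Of 12 genes of mTOR signalling and TOP control, 0 passed, with a median of 0.03. Of 24 genes of ribosome biogenesis, 1 rose against 1.96% of all genes, Bysl, a factor of small-subunit assembly (0.88 ± 0.186; edgeR adjusted p = 0.0490), and 0 fell, with a median of 0.33. All 7 genes of the cycling rule rose, among them Ccnb1 by 4.23 ± 0.341 (edgeR adjusted p = 0.00285). Of 10 genes of the response to tissue dissociation, 3 fell, Egr1 (−2.78 ± 0.253), Junb (−2.28 ± 0.413) and Fos (−2.21 ± 0.469), and 0 rose; the part of that response in the fall of the members was not tested.

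In BECs, where 1.51% of all genes rose, 1 gene of ribosome biogenesis rose, Pes1 (0.97 ± 0.179, edgeR adjusted p = 0.0367). Of the TOP list and the mTOR genes 0 passed, with medians of −0.05 and −0.03. The dissociation list had 3 lower, Egr1, Junb and Ier2, and the cycling rule 3 higher of 7. For the difference of the effects, 0 genes of these lists were called.

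Between the lineages, 14% of all genes were higher in LECs and 12.4% lower. LECs had 2 higher and 1 lower of the 21 genes of the TOP list. Eef1d was 0.40 ± 0.085 higher and Gas5, a host of small nucleolar RNAs, 0.32 ± 0.098 lower. LECs had 2 of 24 biogenesis genes higher, Nhp2 and Ncl, and 2 higher and 2 lower of the 12 mTOR genes. The counts of the TOP and biogenesis lists were not above the share of all genes. The cycling rule had 5 of 7 higher and the dissociation list 1 higher and 6 lower.

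In cycling LECs, where 4.57% of all genes rose, 3 biogenesis genes rose, Nhp2 (0.87 ± 0.140), Nop56 (0.75 ± 0.123) and Ncl, the nucleolin gene (0.51 ± 0.077). From the TOP list 3 genes rose, Nap1l1 (0.91 ± 0.120), Hnrnpa1 (0.70 ± 0.102) and the translation factor Eef1d (0.47 ± 0.109). None of these 2 lists fell. In Ptx3+ LECs, where 3.06% of all genes rose, Hnrnpa1 alone rose in the TOP list (0.34 ± 0.073, edgeR adjusted p = 0.0365). All 7 genes of the cycling rule were higher, and 0 biogenesis or mTOR genes passed.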

How the data were processed

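Ear skin cells were sequenced by Smart-seq2 and summed here per mouse and lineage. The authors deposited raw read counts per gene and well, made by aligning to GRCm38 (TopHat2 2.1.1), removing duplicates (SAMtools 0.1.18) and counting with featureCounts, as deposited and per the labels' processing notes. The annotation version is not given in the sources used here. Symbols came from GENCODE vM21.

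Wells were kept from 200 detected genes and 50000 reads upwards, with a mitochondrial share of no more than 10%. No doublet caller was run. Lineage was set by marker CPM with a limit of 300. Reads were summed per mouse with at least 5 cells a sum, filtered (filterByExpr), scaled (TMM) and tested with edgeR 4.0.16 (quasi-likelihood, Benjamini-Hochberg over all genes, threshold 0.05) in R 4.3.3. DESeq2 1.42.0 was the alternative. Shares were compared by exact permutation over 21 splits of 7 mice or 128 sign changes. Mice are the replicates, and the plates of mutants 3 and 5 were pooled. Mutant and control titles share the numbers 1 and 2 but are different animals.

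Named members were those called (at most 6 in each direction by size), atypical paralogs and partners, the 5 highest and 5 lowest levels, and Rplp0, Rplp1, Rplp2, Rpsa, Rps6, Rpl5 and Rpl11; in LECs all 9 called are given, 3 of them beyond that limit. Some members that this rule names are not reported here singly, but are counted in all totals. The members and lists were chosen with earlier results of these data known. Start windows came from RefSeq (GRCm38.p6), and the tract letters were chosen after sequences were seen. Scripts were tested on simulated data. Without molecular identifiers, reads are not independent molecules.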

Additional observations from a re-analysis of the deposited data

Results flagged for a closer look

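Among 58 sets of values tested for a mouse that stands apart, 5 had 1 mutant mouse far from the other mutants, by a gap of over 0.71 of the range of the 5. Chance gives about 1 in 20. In LECs, Rpl10 was 285.9 CPM in mutant 5, with the next mutant at 232, Rpl14 was 210.8 against 179, and Rpl9 was 249.3 against 201. In BECs, Rps6 was 267.1 CPM in mutant 5 against 172, and Rpl39l, a paralog known from testis, was 2.95 CPM in mutant 3 against 0.496. Mutant 5 is also the only mutant of the later plate series, so that animal and plate series cannot be told apart.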

How the results depend on the processing

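The number of members called in mutant LECs, 9 as reported, was 57 with DESeq2, 14 with DESeq2 size factors, 4 with no filter and 23 with thinned cells. It was 3 without cells with markers of both lineages, 3 with the first plate of each mouse, and 0 without cycling cells or with the plate series as a block. Over all genes, 159 of 19758 were called lower as reported, 37 of 19256 without cycling cells and 25 of 19758 with the series block. DESeq2 had 1155 of 19202 genes lower, DESeq2 size factors 176 of 19758, no filter 106 of 30431 and thinned cells 186 of 15580. Without cells with markers of both lineages there were 141 of 17300, and with the first plate of each mouse 127 of 19652. Without cycling cells, 71 of 84 members were lower at an unadjusted p under 0.05 in edgeR, with a median of −0.82. With the series block, 12 of 84 were lower and 1 higher at that level, with a median of −0.55. Over all genes, 2538 of 19758 passed that level in either direction with the series block. In the later series alone the median of the members was −0.54. The number of members called was 22 with the length trend removed and 22 with length and GC trends removed. It was 16 without cells with fibroblast, mural or keratinocyte markers. Over all genes, 236, 264 and 161 were called lower in these 3 alternatives, all chosen after seeing the data. Leaving out a mouse gave 0 to 21. In BECs, 0 as reported, DESeq2 gave 29, cells without those markers 11 (with 16 BECs left in control 1), and leaving out a mouse 0 to 26. With the series block, 0 of 85 members were called in BECs. At an unadjusted p under 0.05 in edgeR, 0 were lower and 0 higher there, with a median of −0.31. Over all genes, 1935 of 19315 passed that level in either direction. The share difference moved between −1.52 and −0.553 points in LECs and −1.56 and −0.625 in BECs when a mouse was left out, and to −0.816 and −0.475 in the later series.

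With the replicate number as a block, which pairs different animals, 0 members were called in LECs and 0 in BECs. Without the block by mouse, LECs against BECs had 1 and cycling LECs 0. LECs against BECs, 6 as reported, had 14 with DESeq2, 14 with thinned cells, 15 without cells with markers of both lineages and 11 without cycling cells. Over all genes, 3283 of 21204, 2160 of 14155, 1951 of 15764 and 2135 of 16998 were lower in these fits, in the same order. The counts with DESeq2, with thinned cells and without cycling cells were near the share of all genes. LECs against BECs had 39 with the length and 41 with the length and GC trends removed, where 2369 and 2381 of 17470 genes were lower. With a mouse left out they had 1 to 35. Cycling LECs, 2 as reported, had 9 with DESeq2, 0 with no filter, 1 with thinned cells, 0 without cells of both lineages and 0 to 0 with a mouse left out. Ptx3+ LECs, 0 as reported, had 4 with DESeq2, 1 with library size alone and 1 with thinned cells. The causes were not tested. The difference of effects had 0 under each of 17 alternatives. The control arm of 2 mice, or 1 when a control was left out and assumed to vary like the mutants, limits every comparison with control.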

Other observations

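Ribosomal proteins of the mitochondrion, a list added after the data were seen, differed from the cytosolic members in value. In mutant against control LECs, 0 of 78 passed edgeR's test in either direction, with a median of −0.09 and 49 below 0, against 50.4% of all genes. In BECs 0 of 78 passed, with a median of −0.32 and 59 below 0, against 49.6% of all genes. Most of them thus went the same way as the cytosolic members in BECs, to a smaller extent. Between the lineages, 14 of 78 were higher in LECs and 0 lower, against 14% and 12.4% of all genes, with a median of 0.23 against 0.02, led by Mrpl15 at 0.71 ± 0.087 (edgeR adjusted p = 0.000311). In cycling LECs, 4 of 78 rose, Mrpl57 (0.97 ± 0.199), Mrpl51 (0.74 ± 0.169), Mrpl18 (0.73 ± 0.170) and Mrpl45 (0.71 ± 0.150), and 0 fell, against 4.57% and 3.26% of all genes, and 70 of 78 were above 0 against 44.5%. Both counts of higher genes are near the share of all genes. In Ptx3+ LECs, 1 of 78 rose, against 3.06% of all genes, Mrpl17 (0.49 ± 0.108; edgeR adjusted p = 0.0404).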
